A study of Solanum lycopersicum with 2 samples.

Results

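The HsfA1 genes are the tomato heat stress transcription factors regarded as the master switches of the heat stress response. The group has 4 members, HsfA1a, HsfA1b, HsfA1c and HsfA1e. Each was picked by its gene identifier, with the version suffix removed, and they are 4 of 24915 gene models listed in at least 1 of the 2 libraries. HsfA1a is Solyc08g005170.2, HsfA1b is Solyc03g097120.2, HsfA1c is Solyc08g076590.2 and HsfA1e is Solyc06g072750.2. The deposited data give identifiers only, so the pairing of names with identifiers comes from the definition of the group. HsfA1a and HsfA1c lie on chromosome 8, HsfA1b on chromosome 3 and HsfA1e on chromosome 6. Positions along the chromosome are not given with the values. HsfA1a, HsfA1b and HsfA1c have the strand code cri and HsfA1e has the code wat.

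Class A heat stress factors bind short repeated heat shock elements in the promoters of stress genes and activate transcription. As background from tomato and Arabidopsis, HsfA1 proteins are present before stress, are held inactive by Hsp70 and Hsp90 chaperones, and become active when unfolded proteins engage those chaperones. They then switch on chaperone genes and further heat stress factors. Much of this control acts on the protein, and transcript levels do not show it. In tomato HsfA1a is known as the master regulator of acquired thermotolerance.

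The heat-stressed plants were Solanum lycopersicum cultivar Moneymaker, 8 weeks old, that were moved to a growth chamber at 120 μmol m-2 s-1 of light, kept for 1 h at 39°C, and left to recover for 1.5 h at 24°C. The control plants were Moneymaker of the same age. Both groups were raised in a glasshouse with 16 h days at 24°C and 8 h nights at 20°C. Young leaves of mixed developmental stage were sampled, no transgene or mutation is named, and how many plants went into a library is not stated. The labels leave unsaid if controls, too, spent time in the chamber, and the part of the transfer in any difference was not tested.

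Transcripts were counted by massive analysis of cDNA ends (MACE), a method that reads only the 3′ end of each poly-A RNA so that 1 transcript gives 1 read. Levels are in RPM, reads per 1000000 mapped reads, and have no term for transcript length. Members are set side by side on that basis, but how fully each gene model captures its 3′ reads was not tested. Gene models held 71.1% of mapped reads in the heat-stress library and 72.5% in the control library. Mapped reads numbered 13857252 for heat stress and 11534512 for control, which makes 1 read worth 0.0722 RPM and 0.0867 RPM in these libraries. Each condition had 1 library. No difference has a replicate check, no test between conditions was possible, and all intervals are 95% intervals for counting error alone. In leaf RNA, a change in the number of cells that express a gene and a change in RNA per cell cannot be told apart.

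All 4 HsfA1 transcripts were detected in both libraries, and HsfA1a had most of their reads. HsfA1a stood at almost the same level in heat-stressed and control leaves. HsfA1b and HsfA1e, both scarce, were 2.85 and 2.22 times as high in the heat-stress library as in the control library, beyond counting error. HsfA1c was 1.17 times as high, within counting error. Among models of like low abundance (a mean of 1 to 5 RPM), 16.8% were higher beyond counting error, so this is not rare in these libraries. HsfA1b falls in that class only through its heat-stress level. Once 1 RPM was added to each level, the scale used for the whole table, 0 of the 4 were 2-fold higher or lower. On that scale 3.91% of abundant models (a mean of 5 RPM or more) and 3.76% of the low ones were 2-fold higher.

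HsfA1a, the master regulator, had 377 reads in the heat-stress library and 300 in the control library. Its level was 27.2 RPM in heat-stressed leaves (exact Poisson interval 24.5 to 30.1) and 26.01 RPM in control leaves (23.1 to 29.1). The intervals overlapped over most of their length. The ratio of RPM was 1.05 (exact binomial interval 0.896 to 1.22) and the log2 ratio with 1 RPM added was 0.06. With 300 control reads, counting error alone would have let a ratio of 1.17 or more, or 0.849 or less, stand apart from 1, so a 2-fold difference in HsfA1a was well within reach of this depth. HsfA1a ranked 4715 among all models in the heat-stress library and 4576 in the control library, above 80.1% and 79.99% of the models listed there.

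HsfA1c, the second most abundant member, had 63 reads in the heat-stress library and 45 in the control library. Its level was 4.55 RPM (3.49 to 5.82) in heat-stressed leaves and 3.90 RPM (2.85 to 5.22) in control leaves, and the intervals overlapped. The ratio was 1.17 (0.782 to 1.75) and the log2 ratio was 0.18. At this depth a higher level in heat-stressed leaves would have stood out from 1 only at a ratio of 1.46 or more. HsfA1c lay near the middle of each list, above 50.6% of the models of the heat-stress library and 48.2% of those of the control library.

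HsfA1e had 40 reads in the heat-stress library and 15 in the control library. Its level was 2.89 RPM (2.06 to 3.93) in heat-stressed leaves and 1.30 RPM (0.728 to 2.14) in control leaves, with intervals that overlapped slightly. The ratio was 2.22 (1.20 to 4.33), an interval above 1, and the log2 ratio with 1 RPM added was 0.76. HsfA1e stood above 44.5% of listed models in the heat-stress library and 34.0% in the control library.

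HsfA1b was the scarcest member, with 24 reads in the heat-stress library and 7 in the control library. Its level was 1.73 RPM (1.11 to 2.58) in heat-stressed leaves and 0.607 RPM (0.244 to 1.25) in control leaves. The ratio was 2.85 (1.19 to 7.84) and the log2 ratio with 1 RPM added was 0.77. The lower end of the interval was close to 1 because the control value rested on 7 reads, with which a higher level in heat-stressed leaves would have stood out from 1 only at a ratio of about 2.50 or more. HsfA1b stood above 38.2% of listed models in the heat-stress library and 25.2% in the control library.

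**Figure D1:**
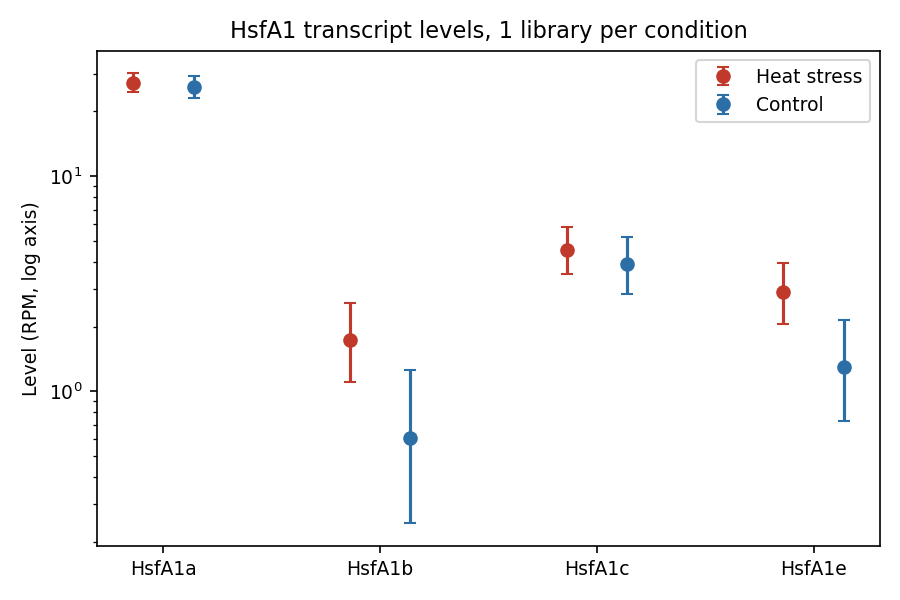
Levels of the HsfA1 transcripts in RPM on a log axis, with the heat-stress library left of the control library for each gene; points are the 2 single libraries and bars are 95% exact Poisson intervals. HsfA1a sits near 27.2 and 26.01 RPM, and HsfA1b and HsfA1e show the widest gaps between the libraries.

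The order of levels was HsfA1a, HsfA1c, HsfA1e and HsfA1b in both libraries. HsfA1a was 5.98 times the level of HsfA1c in heat-stressed leaves (exact binomial interval 4.57 to 7.94) and 6.67 times in control leaves (4.86 to 9.34). HsfA1c was 1.57 times HsfA1e in heat-stressed leaves (1.04 to 2.40) and 3 times in control leaves (1.64 to 5.79). HsfA1e and HsfA1b, the lowest neighbours, could not be separated by counting: the ratio was 1.67 in heat-stressed leaves (0.980 to 2.89) and 2.14 in control leaves (0.822 to 6.21).

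**Figure D2:**
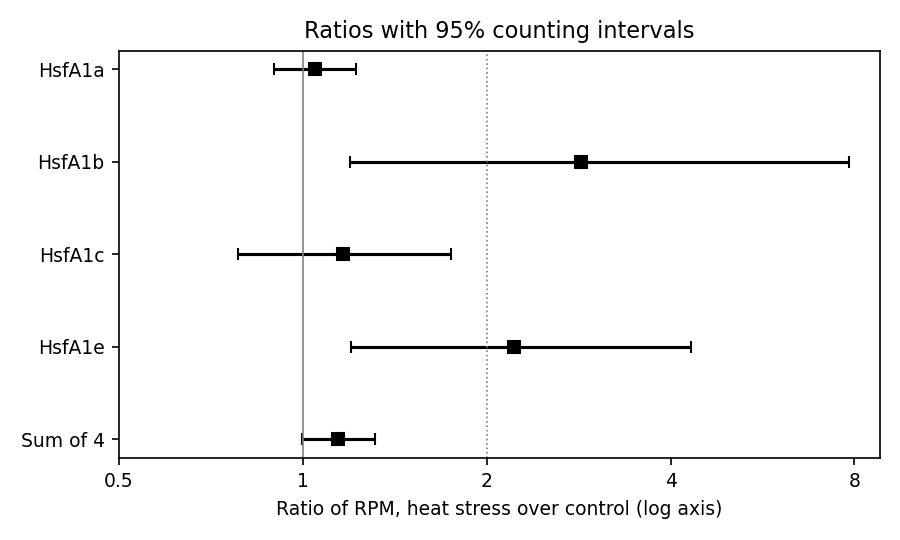
Ratio of RPM in heat-stressed over control leaves for each HsfA1 gene and for their sum, on a log axis, with squares for the ratio and bars for its 95% exact binomial interval; the solid line is 1 and the dotted line 2. The intervals of HsfA1b and HsfA1e lie above 1, and those of HsfA1a, HsfA1c and the sum include it.

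These ratios were set against the other transcripts of the same libraries, since most models were slightly higher in the heat-stress library. HsfA1a belonged to a class of 11271 models whose 2 levels averaged 5 RPM or more. In this class 60.6% were higher by any amount and the median ratio was 1.08. With 1 RPM added, 3.91% were higher by 2-fold or more and 1.66% lower, so higher models made up 70.2% of these calls. After division by the median ratio the shares were 2.95% and 2.35%, and higher models made up 55.7% of the calls. A counting interval above 1 was found in 36% of the class and an interval below 1 in 20.8%. HsfA1a had a higher ratio than 45.1% of them, which places it in the middle of the distribution. The other 3 members belonged to the class of 4683 models with a mean of 1 to 5 RPM, where 60.9% were higher by any amount. HsfA1b entered the low class only through its heat-stress level and is not read against these shares. HsfA1a, HsfA1c and HsfA1e, all higher, are.

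In the low class the plain ratio of RPM was 2 or more in 11.1% of models and 0.5 or less in 3.97%. Its counting interval lay above 1 in 16.8% and below 1 in 7.07%. HsfA1b and HsfA1e, 2 of the 4 members, were past 2-fold on this plain ratio, and only HsfA1e is set against the 11.1%. HsfA1e had a higher ratio than 91.7% of the low class and HsfA1c than 53.2%. HsfA1b was under 1 RPM in the control library and entered this class through its heat-stress level alone, so its place in the class is not read. With 1 RPM added, 3.76% of the low class were past 2-fold on the higher side and 0.918% on the lower side, and neither gene was among them. Dividing by the median ratio of all models past 5 RPM, a shift of 0.11 on the log2 scale, left HsfA1b at 2.64 (1.11 to 7.27) and HsfA1e at 2.06 (1.11 to 4.01). On the same scale HsfA1c was at 1.08 and HsfA1a at 0.969, so the direction of HsfA1a was the opposite under this scaling.

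**Figure D3:**
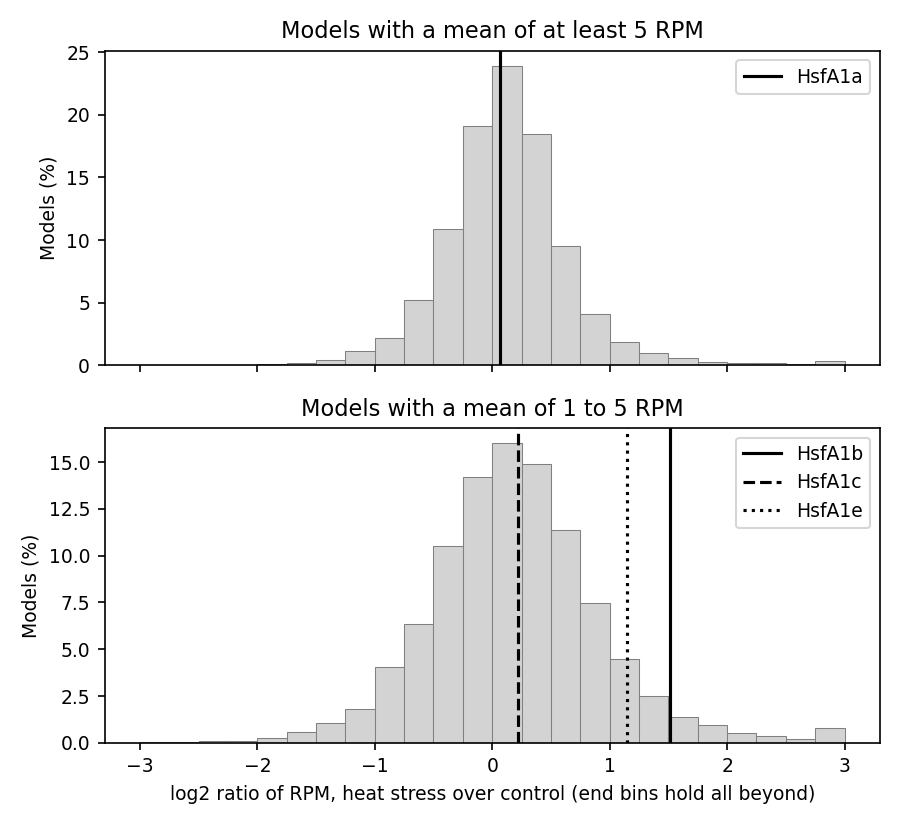
Distribution of the log2 ratio of RPM without a pseudocount, heat-stressed over control leaves, in percent of models per bin of 0.25, for a mean of at least 5 RPM (top) and of 1 to 5 RPM (bottom); lines mark the HsfA1 genes, and the end bins hold everything beyond. HsfA1a and HsfA1c lie near the centre and HsfA1e above 91.7% of its class; HsfA1b is drawn for its value only, since it entered the class through its heat-stress level.

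Summed over the group, HsfA1 transcripts reached 36.4 RPM in heat-stressed leaves (33.3 to 39.7) and 31.8 RPM in control leaves (28.6 to 35.2). The ratio of the sums was 1.14 (0.997 to 1.31), at the edge of counting error, and 1.06 after division by the median ratio of all models. HsfA1b, HsfA1c and HsfA1e together had 9.16 RPM in heat-stressed leaves and 5.81 RPM in control leaves, a ratio of 1.58 (1.16 to 2.15). This grouping leaves out HsfA1a, whose ratio was near 1 in these same data, so it is not a test. With HsfA1b, HsfA1c or HsfA1e left out instead, the intervals included 1: 0.966 to 1.28, 0.985 to 1.32 and 0.953 to 1.26. HsfA1b, HsfA1c and HsfA1e supplied 3.36 RPM, or 73.7%, of the summed difference of 4.55 RPM. The interval of the summed ratio included 1, so this percentage has no firm value. This split depends on the scaling, since the ratio of HsfA1a was 0.969 after division by the median ratio.

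HsfA1a held a smaller share of the HsfA1 reads in heat-stressed than in control leaves, in a comparison that does not depend on how the libraries are scaled. Its share was 74.8% in heat-stressed leaves (exact Clopper-Pearson interval 70.8 to 78.5) and 81.7% in control leaves (77.4 to 85.6). HsfA1c held 12.5% in heat-stressed leaves and 12.3% in control leaves. HsfA1e held 7.94% in heat-stressed leaves (5.73 to 10.7) and 4.09% in control leaves (2.31 to 6.65). HsfA1b held 4.76% in heat-stressed leaves (3.07 to 7.00) and 1.91% in control leaves (0.770 to 3.89). For each member the intervals of the libraries overlapped. Overlap of separate intervals does not compare the libraries, and the differences in share were not tested.

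**Figure D4:**
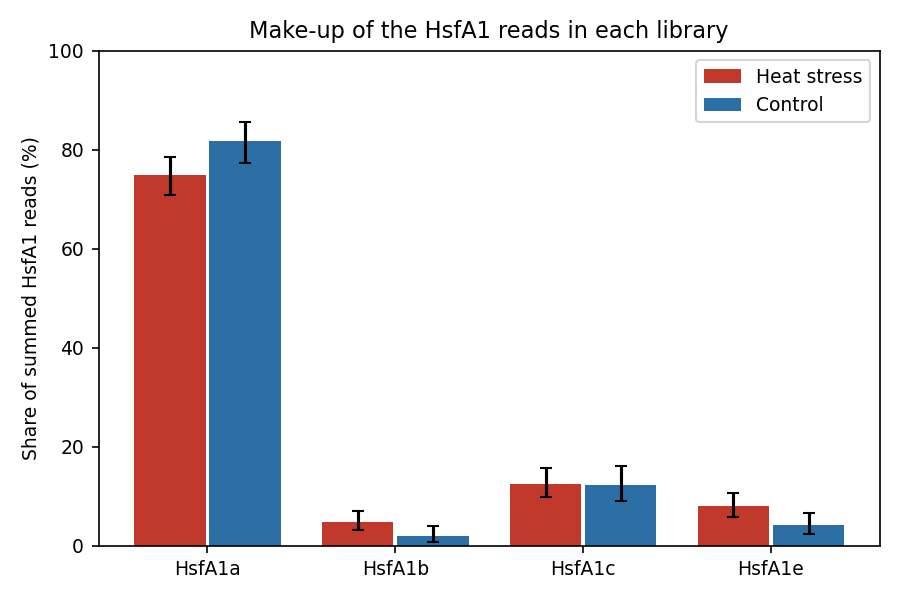
Share of the summed HsfA1 reads held by each gene, in percent, with the heat-stress library left of the control library and 95% exact Clopper-Pearson intervals as bars. HsfA1a holds 74.8% in heat-stressed and 81.7% in control leaves.

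The 6 pairs of members were also compared directly, by how far the ratio of their reads differed between the libraries. HsfA1b relative to HsfA1a was 0.0637 in heat-stressed leaves and 0.0233 in control leaves, 2.72 times as high (conditional exact interval 1.12 to 7.59). HsfA1e relative to HsfA1a was 0.106 in heat-stressed leaves and 0.0500 in control leaves, 2.12 times as high (1.12 to 4.21). These 2 of the 6 pairs had an interval above 1. With the interval widened for 6 pairs, 0 did, and the bounds became 0.866 to 11.1 for HsfA1b and 0.921 to 5.36 for HsfA1e. HsfA1b and HsfA1e did not separate from each other, with an interval from 0.417 to 4.27, which is wide and does not show that they behaved alike.

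The shape of the 3′ signal offered a further readout. The deposited peak height is the number of reads in the highest peak of a model. For HsfA1a this was 88 of 377 reads, 23.3% (19.2 to 27.9), in heat-stressed leaves and 61 of 300 reads, 20.3% (15.9 to 25.3), in control leaves. The intervals overlapped. Over the 8945 models that had 100 or more reads in each library, leaving out any whose peak exceeded its reads, the median was 24.7% in the heat-stress library and 25.4% in the control library. HsfA1a was above 37.3% of these models in the heat-stress library and above 9.87% in the control library, where the upper end of its interval lay just under the median. The peaks of HsfA1c held 25.4% of its reads in heat-stressed leaves and 26.7% in control leaves. HsfA1e had 25% and HsfA1b 37.5% in heat-stressed leaves, against 20.0% and 42.9% in control leaves, from peaks of 3 to 10 reads.

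Reads of all 4 members were whole numbers in both libraries, where a read divided between locations would usually leave a fraction. In this nomenclature identifiers number the models along a chromosome, and the 16 listed models within 2 places of a member were inspected because the labels do not say if reads were counted by strand. Their log2 ratios with 1 RPM added ran from -0.16 to 0.44, and 0 of the 16 were 2-fold higher or lower. That count says little, because several had very few reads, for which this scale hardly allows a call. Such calls were also rare over all models past 5 RPM, at 3.91% higher and 1.66% lower. Of the 16, 0 had the same peak heights as the member beside them. The model just before HsfA1b, on the same strand, was far more abundant, at 57.7 RPM in heat-stressed leaves and 51.2 RPM in control leaves, with a log2 ratio of 0.17. Whether any of its reads were counted for HsfA1b was not tested.

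The models closest to HsfA1a over the 2 libraries, by distance in log2(RPM + 1), were Solyc09g063080.1 on chromosome 9, with 27.06 RPM in heat-stressed and 25.8 RPM in control leaves, and Solyc11g017440.1 on chromosome 11, with 27.1 RPM in heat-stressed and 26.4 RPM in control leaves. In all 93 models lay within 0.1 of HsfA1a, so a pattern over 2 libraries singles out no partner.

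The rest of the pathway was taken from lists of identifiers recalled from the published tomato nomenclature. Neither the deposited data nor the reference table pairs these identifiers with names, so the lists could not be checked and are described as groups. The list of other heat stress factors had 18 models, of which 8 had a mean of at least 5 RPM. Of these 8, 1 was past 2-fold on the higher side, 0 on the lower side and 7 lay between, with log2 ratios from -0.17 to 1.01 and a median of 0.41, against 0.10 for all models past the filter, where 3.91% were higher and 1.66% lower. The 1 higher call lay at the threshold and was lost with the median ratio scaling, a pseudocount of 5 RPM or a filter of 20 RPM, and over all 18 models the median was 0.22. Of the 10 models under the filter, 2 had a counting interval above 1, with ratios of 2.41 (1.55 to 3.84) and 2.31 (1.19 to 4.74). HsfA1b and HsfA1e also had such an interval. In 1 of the 10 the interval lay below 1, with a ratio of 0.175 (0.0434 to 0.527). Over all models with a mean of 1 to 5 RPM, 16.8% had an interval above 1 and 7.07% below 1. No share was computed under 1 RPM, where some of the 10 lay. These counts are therefore not read as a trait of the list. Past the filter, the model with the highest ratio had 21.7 RPM in heat-stressed leaves and 10.3 RPM in control leaves. Among the 22 heat stress factor models together, HsfA1a ranked 4 by level in both libraries. The HsfA1 genes supplied 14.3% of the summed RPM of the 22 in heat-stressed leaves and 15.8% in control leaves.

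The list of Hsp90 and cytosolic Hsp70 genes, whose proteins bind and restrain HsfA1, had 8 models, all past 5 RPM. Past 2-fold were 3 on the higher side and 1 on the lower side, and 4 lay between, with a median log2 ratio of 0.32 and a range from -2.01 to 2.53. The weakest higher call, at 1.03, lay near the threshold. With the median ratio scaling or a pseudocount of 5 RPM it was lost, which left 2 higher. Over all models past 5 RPM 3.91% were on the higher side and 1.66% on the lower side, with a median of 0.10. The lowest of them stood at 184 RPM in heat-stressed leaves and 746 RPM in control leaves, and the highest at 402 RPM in heat-stressed leaves and 69.0 RPM in control leaves. Summed, they had 3924 RPM in heat-stressed leaves and 3322 RPM in control leaves, about 108 and 104 times the summed HsfA1 level of the same library.

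The list of heat stress targets had 10 models, all with a mean of at least 5 RPM. It covers Hsp101, a disaggregating chaperone, small heat shock proteins, which hold unfolded proteins, and the coactivator MBF1c. Past 2-fold were 9 on the higher side and 1 on the lower side, with a median log2 ratio of 2.89 and a range from -1.01 to 4.12, beside the same 3.91%, 1.66% and median of 0.10 for all models. A model among the 9 had 3.97 RPM in control and 23.6 RPM in heat-stressed leaves. It passed the filter only through its heat-stress level. The list was chosen with earlier results of these data known, so these counts are not a test. The lower call lay at the threshold and was lost with a pseudocount of 5 RPM or scaling to the reads in gene models. The model at the top had 4221 RPM in heat-stressed leaves and 242 RPM in control leaves, and the lower one had 32.04 RPM in heat-stressed leaves and 65.5 RPM in control leaves. Their sum was 8831 RPM in heat-stressed leaves and 781 RPM in control leaves, 11.3 times as high, beside 1.14 times for the summed HsfA1 genes. It amounted to 243 times the summed HsfA1 level in heat-stressed leaves and 24.6 times in control leaves. Reads were fractional in at least 1 library for 6 of these 10 models and for 7 of the 8 chaperones. They were also fractional for 4 of the 18 other heat stress factors. Near-identical genes may share reads in such models.

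**Figure D5:**
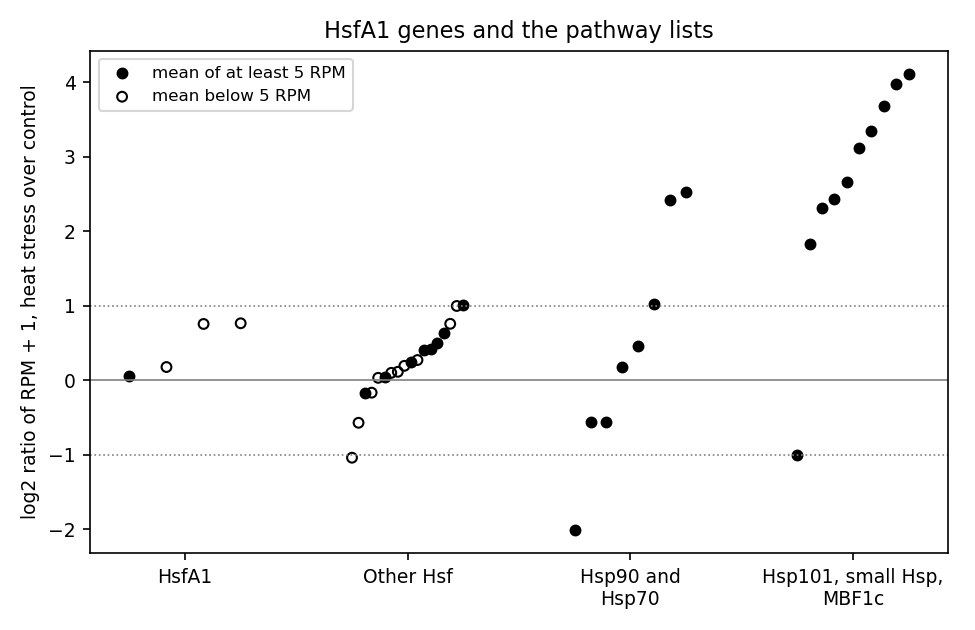
Log2 ratio of RPM + 1, heat-stressed over control leaves, for each HsfA1 gene and for each model of the 3 pathway lists, with filled points for a mean of at least 5 RPM, open points below it, and dotted lines at 2-fold. The HsfA1 points lie between 0.06 and 0.77, and those of the heat stress target list between -1.01 and 4.12.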

How the data were processed

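Leaves of 1 heat-stress and 1 control library were profiled by MACE, per the labels' protocols. The submitters' processing notes name FastQC. The aligner, the build and the gene models' source were not given in the sources used here. Per the file headers, the authors deposited for each gene model an estimated count of reads, the library's total count of mapped reads, a column called TPM, and the signal height of the highest peak of reads. The deposited TPM column equals reads per 1000000 mapped reads (RPM) on every row, with a largest mismatch of 3.42e-08, and is called RPM here. A model not listed counts as 0.

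Ratios are heat stress over control. Calls used log2((RPM + 1)/(RPM + 1)), a mean of at least 5 RPM and a 2-fold threshold. This scale understates changes of low models. Intervals are 95% exact Poisson, binomial and Clopper-Pearson intervals on reads, computed with scipy 1.17.1, and cover counting error only. The interval for pairs is the conditional exact interval of an odds ratio. The calculations were tested on simulated libraries that had counting error only. The changed models there were more abundant than HsfA1b, HsfA1c and HsfA1e, so recovery of changes at their depth was not tested. The members and lists were chosen with earlier results of these data known, and the class of 1 to 5 RPM was chosen after seeing the data. Named were the 4 members and the 2 models closest to HsfA1a. Of 41476 reference genes 0 carry the identifiers of the files, so no sequence or coordinate is given.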

Additional observations from a re-analysis of the deposited data

How the results depend on the processing

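The log2 ratios of the 4 HsfA1 genes stayed within their counting intervals under each other setting. The settings were pseudocounts of 0.1 and 5 RPM, no pseudocount, the median ratio and gene-model scalings, and peak heights in place of reads. The intervals are those of the plain ratio and are wide for HsfA1b and HsfA1e, so staying within them says little. HsfA1a changed sign with the median ratio scaling, at -0.04. HsfA1b was past 2-fold with a pseudocount of 0.1 RPM (1.37) and with none (1.51), as was HsfA1e (1.09 and 1.15). Their values were smaller with a pseudocount of 5 RPM, at 0.26 for HsfA1b and 0.32 for HsfA1e. By peak heights they were 0.39 and 0.45. The log2 ratio of the summed HsfA1 level was between 0.08 and 0.33 under these settings. With 1 member left out it was between 0.13 and 0.58, the highest without HsfA1a, which holds most reads. By peak heights HsfA1b held 7.32% of the HsfA1 signal in heat-stressed leaves and HsfA1a 77.2% in control leaves, both outside the interval by reads. Omitting the pseudocount was chosen after seeing the data.

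A filter of 20 RPM gave 248 higher and 115 lower models, and a pseudocount of 5 RPM gave 267 and 112, against 441 and 187 as reported; both are stricter by construction. The median ratio scaling gave 329 and 262, so the shares printed as background depend on the scaling. Among other heat stress factors the count of higher models was 0 with the filter of 20 RPM, a pseudocount of 5 RPM or the median ratio scaling and 2 with the gene-model scaling. Without a filter 1 was lower, and the median was 0.22, against 0.24 with the filter of 20 RPM and 0.30 with the median ratio scaling. That scaling gave medians of 0.21 for the chaperone list and 2.78 for the heat stress target list. The median of the latter was 3.11 with the filter of 20 RPM. The lower model of the heat stress target list was no longer past 2-fold with a pseudocount of 5 RPM or the gene-model scaling, where 0 were lower. No paired analysis was possible because there was a single library for each condition. Depth limits HsfA1b and HsfA1e most, with 7 and 15 control reads.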
